A study of Mus musculus with 12 samples.

Results

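Pituitary tumors of homozygous POMC KO mice were compared with those of heterozygous POMC KO mice. The comparison took 10 of the 12 arrays of the series, 2 labelled as homozygous and 8 labelled as heterozygous knockouts of the pro-opiomelanocortin gene, and the other 2 arrays, of normal mouse pituitary, were kept in the fit to show the normal level. The tumors arose spontaneously in untreated mice, the tissue was the pituitary gland, and total RNA with an integrity number above 7 was hybridized to Affymetrix Mouse Genome 430 2.0 arrays. Age, sex and strain of these animals, and the position of the deletion within the gene, were not given in the sources used here. The mutant line was kept by mating heterozygous mice, so a heterozygous animal has 1 intact copy of the gene in every cell and a homozygous animal has none. The normal glands carried no knockout and were, by the study's methods, pooled tissue.

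Pro-opiomelanocortin is the precursor that melanotrophs of the intermediate lobe and corticotrophs of the anterior lobe cut into adrenocorticotropin, melanotropins and endorphin. Adrenocorticotropin drives the adrenal cortex to make glucocorticoids, and these hormones feed back on corticotrophs. Melanotrophs are held in check by dopamine through the D2 receptor, and their identity rests on the transcription factor Pax7.

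Tumor arrays with neighbouring numbers (1 and 2, 3 and 4, 5 and 6, 7 and 8) were near duplicates, with correlations of 0.997 and 0 to 2 probe sets more than 2-fold apart, so that each pair was averaged and counted as 1 sample. This left 4 heterozygous tumors, named by their arrays as 1-2, 3-4, 5-6 and 7-8, and 1 homozygous tumor. With a single homozygous sample, its spread was taken to equal that within the other genotypes, and p-values measure the spread between these samples only. The difference between the 2 normal samples enters this spread, and as these were pooled tissue it need not be a spread between animals. By number of probe sets more than 2-fold apart, the homozygous tumor was nearest to heterozygous tumor 7-8 (475), then to 3-4 (966), 5-6 (976) and 1-2 (1296), with 1539 and 1641 for the normal glands. Xist, the RNA of the inactive X chromosome, lay at 11.20 in the homozygous tumor, at 10.93 and 11.25 in heterozygous tumors 3-4 and 7-8, and at 4.58 and 5.0 in tumors 1-2 and 5-6, with 4.57 to 5.07 in normal pituitary. The Y-linked gene Eif2s3y ran the other way, at 3.66 in the homozygous tumor, 3.63 and 3.37 in tumors 3-4 and 7-8, and 8.68 and 8.87 in tumors 1-2 and 5-6. It was at 8.62 and 8.89 in normal pituitary. By these genes the homozygous tumor and tumors 3-4 and 7-8 read as female, and tumors 1-2 and 5-6 and the normal glands as male. Differences between the homozygous tumor and normal pituitary thus also set female against male tissue. Those from the heterozygous mean set a female tumor against tumors of both sexes. The part of sex in either was not tested. Values in the sentences that follow are log2 signals, and heterozygous values are given in the order 1-2, 3-4, 5-6, 7-8.

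Transcripts of Pomc, the targeted gene, were far lower in the homozygous tumor than in any heterozygous tumor. Pomc had signals of 15.28, 15.30, 15.27 and 15.15 in heterozygous tumors and 7.18 in the homozygous tumor (7.07 and 7.28 on its 2 arrays), with 15.08 and 15.11 in normal pituitary. The difference was -8.07 (standard error 0.14, adjusted p = 4.91e-07 from limma), against a spread between heterozygous tumors of 0.07 (SD, n = 4). The second Pomc probe set changed by -9.40 (standard error 0.14, adjusted p = 3.61e-07). The homozygous tumor matched its label at both probe sets. The heterozygous tumors were 0.16 above the normal glands (adjusted p = 0.33), at the top of the signal scale, where the size of a difference is not exact.

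The 250 bases upstream of the RefSeq start of Pomc are shown as those of the targeted gene, the one with the largest difference. They lie at chr12:3954695-3954944 on the plus strand of GRCm38.p6, and capitals mark an E-box (CAGATG on either strand, read as CAGATG or CATCTG) at -147 and TATAAA at -25 from the start, both found as matches of letters only.
Pomc: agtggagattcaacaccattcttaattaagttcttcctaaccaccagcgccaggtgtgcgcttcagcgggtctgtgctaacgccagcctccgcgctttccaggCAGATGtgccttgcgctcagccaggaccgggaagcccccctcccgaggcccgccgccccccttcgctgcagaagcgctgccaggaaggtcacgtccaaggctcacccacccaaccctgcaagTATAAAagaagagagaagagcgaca

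The enzymes that process the Pomc precursor were not called. Of 10 prohormone processing genes tested, the 1 called lower was the targeted gene Pomc itself, and none was called higher. Over all genes 0.0487% were called lower and 0.244% higher. By sign 6 of the 10 had negative and 4 had positive differences. Pcsk1, the convertase that frees adrenocorticotropin, reached 10.45 in the highest heterozygous tumor and 10.70 in the homozygous tumor (difference 0.52, standard error 0.19, adjusted p = 0.444). Cpe, the carboxypeptidase that trims the cut ends, had a difference of -0.07 (standard error 0.14, adjusted p = 0.966). Pcsk1n, an inhibitor of the convertase, stood above all 4 heterozygous tumors, at 11.62 against 10.05, 10.03, 10.03 and 10.48, but was not called (difference 1.47, adjusted p = 0.0622). The 10 granins and other granule cargo genes had differences from -0.61 to 0.65, and none was called. Chgb and Scg2, the brightest of them, had differences of 0.23 and -0.02.

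Beyond Pomc, few probe sets passed the test. Of 24486 tested, 61 differed more than 2-fold with an adjusted p below 0.05 and are called here (0.249%), 52 of them higher (0.212%) and 9 lower (0.0368%) in the homozygous tumor. By the probe set that stands for each gene, 30 of 12316 genes were higher (0.244%) and 6 were lower (0.0487%), 36 in all (0.292%). Without any test, 253 genes (2.05%) stood more than 2-fold above the heterozygous mean and above each heterozygous tumor, and 147 genes (1.19%) stood below in the same way. By probe sets these were 435 (1.78%) and 230 (0.939%). The filter favoured higher calls, because a probe set needed 2 arrays that reached the median value of the whole table (5.74) and the homozygous tumor has 2 arrays. Of the 52 higher probe sets, 16 passed through these 2 arrays alone, against 67 of all 24486 tested. Of the 30 higher genes, 8 did, against 27 of all genes tested. They were Bpifa2, Gabrb2, Grm5, Kcnip4, Myl1, Qrfpr, Slc25a31 and Slc6a14, which entered the test by the group where they are high, so for those described below the test is given from the fit with no filter, over 45037 probe sets. In 22 of the 30 the heterozygous mean lay under the median, where the size of a difference is not exact. With no filter 97 probe sets were called, 83 higher and 14 lower, and with a filter on 4 of 7 samples 11 were called, 6 higher and 5 lower. The count also rests on which samples enter the fit: 34 probe sets were called without heterozygous tumor 3-4, 234 without tumor 7-8, 33 without either normal sample and 466 with the 10 tumor arrays as separate samples.

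**Figure D1:**
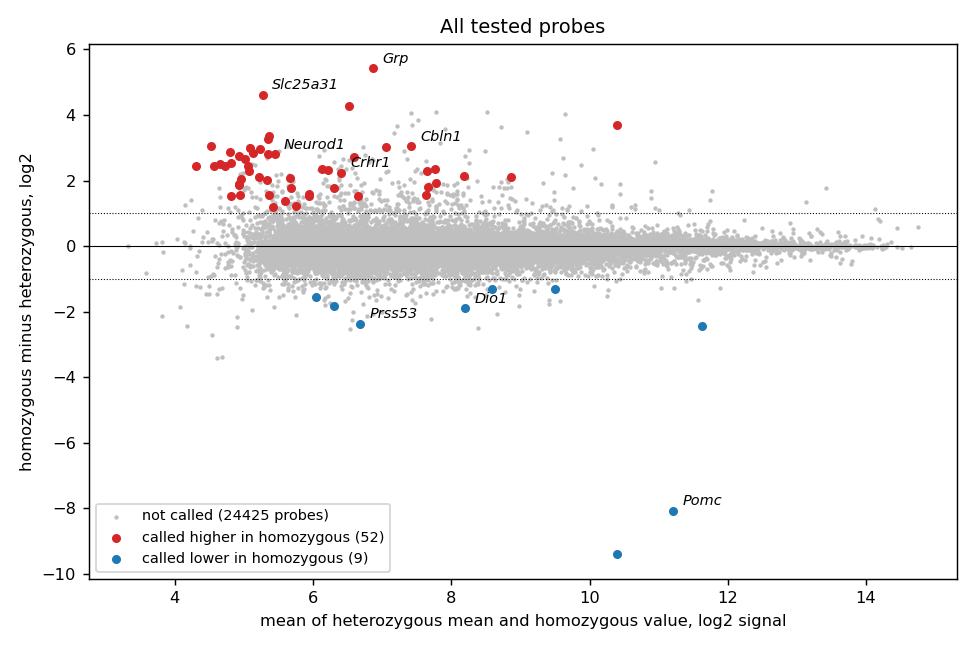
Difference between the homozygous tumor and the heterozygous mean (log2, vertical axis) against the mean of both values (log2 signal, horizontal axis) for each of the 24486 tested probe sets. Red points mark the 52 called higher and blue points the 9 called lower in the homozygous tumor, and dotted lines mark a 2-fold change. Pomc lies at -8.07 and Grp at 5.43.

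The called genes are described by their known roles, peptides and receptors first. Grp, which encodes gastrin-releasing peptide, had signals of 3.96, 3.98, 4.36 and 4.33 in heterozygous tumors, 9.58 in the homozygous tumor and 6.80 and 7.23 in normal pituitary. It rose by 5.43 over heterozygous tumors (standard error 0.24, adjusted p = 0.000335) and was 2.57 above normal (standard error 0.26, adjusted p = 0.00811). No heterozygous tumor came near the homozygous value, and the normal glands lay between. Vip, which encodes vasoactive intestinal peptide, a secretagogue of prolactin, was at 3.29, 3.54, 3.53 and 3.87 in heterozygous tumors, 6.30 in the homozygous tumor and 7.79 and 7.83 in normal pituitary. Its difference was 2.75 (standard error 0.21, adjusted p = 0.00349), and that from normal was -1.51 (adjusted p = 0.0258), so that the homozygous tumor lay between the other groups. Grp and Vip were the 2 of 10 neuropeptide genes tested that were called, where 0.292% of all genes were. The list had a median difference of 0.07, and its lowest member was Penk, the enkephalin precursor, at -1.17 (adjusted p = 0.709).

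Crhr1, the receptor by which corticotropin-releasing hormone acts on corticotrophs, had signals of 5.07, 5.21, 5.37 and 5.47 in heterozygous tumors, 7.53 in the homozygous tumor and 6.77 and 6.67 in normal pituitary. It rose by 2.25 (standard error 0.18, adjusted p = 0.00368), and its second probe set by 1.60 (adjusted p = 0.0234). Trhr, the receptor for thyrotropin-releasing hormone, rose by 2.43 (standard error 0.28, adjusted p = 0.0234), from 3.21, 3.11, 3.22 and 3.84 to 5.78, with 6.47 and 6.76 in normal pituitary. For both receptors the homozygous tumor was nearer to normal than any heterozygous tumor was. Qrfpr, the receptor of an RF-amide peptide of the hypothalamus, was at 2.96, 2.88, 2.91 and 3.24 in heterozygous tumors, 6.06 in the homozygous tumor and 3.89 and 4.05 in normal pituitary. Its difference was 3.06 (standard error 0.17, adjusted p = 0.00117 with no filter), and it was 2.08 above normal.

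Neurod1, a basic helix-loop-helix factor that binds an E-box of the Pomc promoter in corticotrophs, rose at both of its probe sets. It was at 3.91, 3.93, 4.03 and 4.33 in heterozygous tumors, 6.85 in the homozygous tumor and 6.74 and 7.02 in normal pituitary. The differences were 2.80 (adjusted p = 0.00294) and 2.85 (adjusted p = 0.0021), with standard errors of 0.20 and 0.19. Against normal pituitary the homozygous value differed by -0.04 (standard error 0.22, adjusted p = 0.951).

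The letters CAGATG or CATCTG, marked in the Pomc promoter, were looked for upstream of the other called genes too. Whether Neurod1 binds at any of these matches, that of Pomc among them, was not tested. RefSeq starts were found for 22 of the 30 higher genes and for 5 of the 6 lower ones. The letters occurred upstream of 4 of these higher genes (Akap6, Cap2, Kcnip4 and Qrfpr), in 5 of 26 starts (19.2%), against 14.4% of all 32851 promoters of this length. Among the lower genes Pomc and Hrh1 held these letters. The promoters of Qrfpr and of Slc25a31, the gene with the second largest rise, are shown beside the Pomc promoter, each 250 bases long. Qrfpr lies at chr3:36222276-36222525 on the minus strand, with the E-box in capitals at -152. Slc25a31 lies at chr3:40708621-40708870 on the plus strand, with its 18 CG pairs in capitals, against a median of 6 in all promoters.
Qrfpr: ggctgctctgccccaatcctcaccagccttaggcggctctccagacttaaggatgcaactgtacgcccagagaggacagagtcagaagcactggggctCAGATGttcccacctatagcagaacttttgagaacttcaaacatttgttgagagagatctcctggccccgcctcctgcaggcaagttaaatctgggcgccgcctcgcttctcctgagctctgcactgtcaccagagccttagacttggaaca
Slc25a31: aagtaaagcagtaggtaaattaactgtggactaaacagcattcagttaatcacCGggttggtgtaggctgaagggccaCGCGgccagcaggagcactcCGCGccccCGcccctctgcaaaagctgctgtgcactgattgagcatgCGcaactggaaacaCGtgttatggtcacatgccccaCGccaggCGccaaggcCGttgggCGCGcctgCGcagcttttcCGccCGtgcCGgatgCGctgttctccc

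Slc25a31 encodes an ADP/ATP carrier of mitochondria that is known from germ cells. Its signals were 2.99, 2.98, 2.93 and 2.98 in heterozygous tumors, 7.58 in the homozygous tumor and 4.08 and 4.67 in normal pituitary. Its difference was 4.61 (standard error 0.21, adjusted p = 0.000444 with no filter), and it was 3.21 above normal.

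Some other called genes are known from neurons or synapses. Cbln1, a secreted organizer of synapses, was called at 3 of 3 probe sets, with differences of 2.08 to 4.26. At its brightest probe set it was at 5.74, 5.92, 6.04 and 5.86 in heterozygous tumors, 8.94 in the homozygous tumor and 8.33 and 8.56 in normal pituitary. Dcx, a microtubule-binding protein of young neurons, rose by 2.98 (standard error 0.29, adjusted p = 0.00981), with a homozygous signal of 6.57 and heterozygous signals of 3.38 to 3.88. The Dcx probe sets that did not pass the filter had differences of 0.44 and 0.55. The differences from normal were 0.50 for Cbln1 (adjusted p = 0.218) and 0.62 for Dcx (adjusted p = 0.355), and neither was called. Shisa9, an auxiliary protein of AMPA receptors, and Vat1l rose by 2.44 (adjusted p = 0.0211) and 2.73 (adjusted p = 0.012), with homozygous minus normal differences of -0.26 and -0.11.

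Grm5, a metabotropic glutamate receptor, was at 3.24, 3.37, 3.11 and 3.72 in heterozygous tumors, 6.23 in the homozygous tumor and 3.51 and 3.42 in normal pituitary. It was 2.87 above heterozygous tumors (standard error 0.22, adjusted p = 0.00337 with no filter) and 2.77 above normal. Gabrb2, a subunit of GABA-A receptors, had a difference of 2.12 at its brightest tested probe set (standard error 0.16, adjusted p = 0.00337 with no filter), where it was 1.62 above normal, and of 2.96 at another. Its 3 probe sets that did not pass the filter had differences of 0.21, 1.72 and 1.87. Among 15 neurotransmitter receptor genes tested Gabrb2 was the 1 called, where 0.292% of all genes were. Since Gabrb2 entered the test through the homozygous arrays alone, this count cannot be read as a result about the list. The list median was -0.18. Kcnip4, which binds voltage-gated potassium channels, was at 7.31 against 4.72 to 5.32 in heterozygous tumors and 4.95 and 5.07 in normal pituitary (difference 2.37, standard error 0.22, adjusted p = 0.00978 with no filter). Its other 2 tested probe sets had larger differences of 3.04 and 3.12 that were not called (adjusted p = 0.107 and 0.104).

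The next genes encode secreted proteins. Wfdc18, of the whey acidic protein family, was at 5.23, 5.48, 5.16 and 6.32 in heterozygous tumors and 8.56 in the homozygous tumor, and rose by 3.02 (standard error 0.41, adjusted p = 0.0484). Bpifa2, a protein of saliva, was at 5.96 against 3.36 to 3.71 in heterozygous tumors and 3.41 to 3.48 in normal pituitary, with a difference of 2.45 (standard error 0.16, adjusted p = 0.00188 with no filter). Wfdc18 was 3.56 above normal (adjusted p = 0.0143), and Bpifa2 was 2.51 above normal. Vegfd, a growth factor of lymphatic vessels, was called at 3 of 3 probe sets, by 1.86 to 2.67, and its homozygous signal of 6.28 lay under the 7.18 and 7.57 of normal pituitary. The peptide gene Oxt, for oxytocin, was at 8.74 against 6.54 to 7.20 in heterozygous tumors and 9.49 and 9.50 in normal pituitary (difference 1.94, adjusted p = 0.0419). The posterior lobe, where oxytocin nerve endings lie, may be part of the tissue, and of 10 genes of its glia none was called, with a mean signal of 6.27 to 6.67 in heterozygous tumors, 6.69 in the homozygous tumor and 7.24 and 7.38 in normal pituitary. Its part in the values of Oxt was not tested. The remaining higher genes called by their brightest probe set were Cilp, Aplnr, Mtx1, Myl1, Slc6a14, Hgh1, Akap6, Cap2, Ldb2, Dgkk, Syndig1 and Pcp4l1, with differences from 1.21 for Pcp4l1 to 2.36 for Cilp. Of these, Myl1 and Slc6a14 entered the test through the homozygous arrays alone, and no test without the filter is given for them.

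Apart from Pomc, 5 genes were lower in the homozygous tumor. Prss53, a serine protease, was at 7.97, 7.69, 7.78 and 8.01 in heterozygous tumors, 5.50 in the homozygous tumor and 6.20 and 6.22 in normal pituitary. It fell by 2.36 (standard error 0.17, adjusted p = 0.00258). Dio1, the deiodinase that converts thyroxine to the active hormone, was at 9.05, 9.16, 9.43 and 8.93 in heterozygous tumors, 7.26 in the homozygous tumor and 7.03 and 7.24 in normal pituitary (difference -1.89, standard error 0.21, adjusted p = 0.019). Hrh1, the histamine H1 receptor, fell by 1.81 (standard error 0.21, adjusted p = 0.025), from 7.02 to 7.48 down to 5.40, with 5.19 and 5.49 in normal pituitary. For Dio1 and Hrh1 the homozygous tumor thus differed from normal by 0.12 (adjusted p = 0.822) and 0.06 (adjusted p = 0.92). Ifi27l2a, an interferon-induced gene, was at 10.08 to 10.20 in heterozygous tumors, 8.83 in the homozygous tumor and 7.28 and 7.40 in normal pituitary (difference -1.32, standard error 0.14, adjusted p = 0.0143). Ola1, an Obg-like ATPase, fell by 2.43 at its brightest probe set (standard error 0.31, adjusted p = 0.0388).

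**Figure D2:**
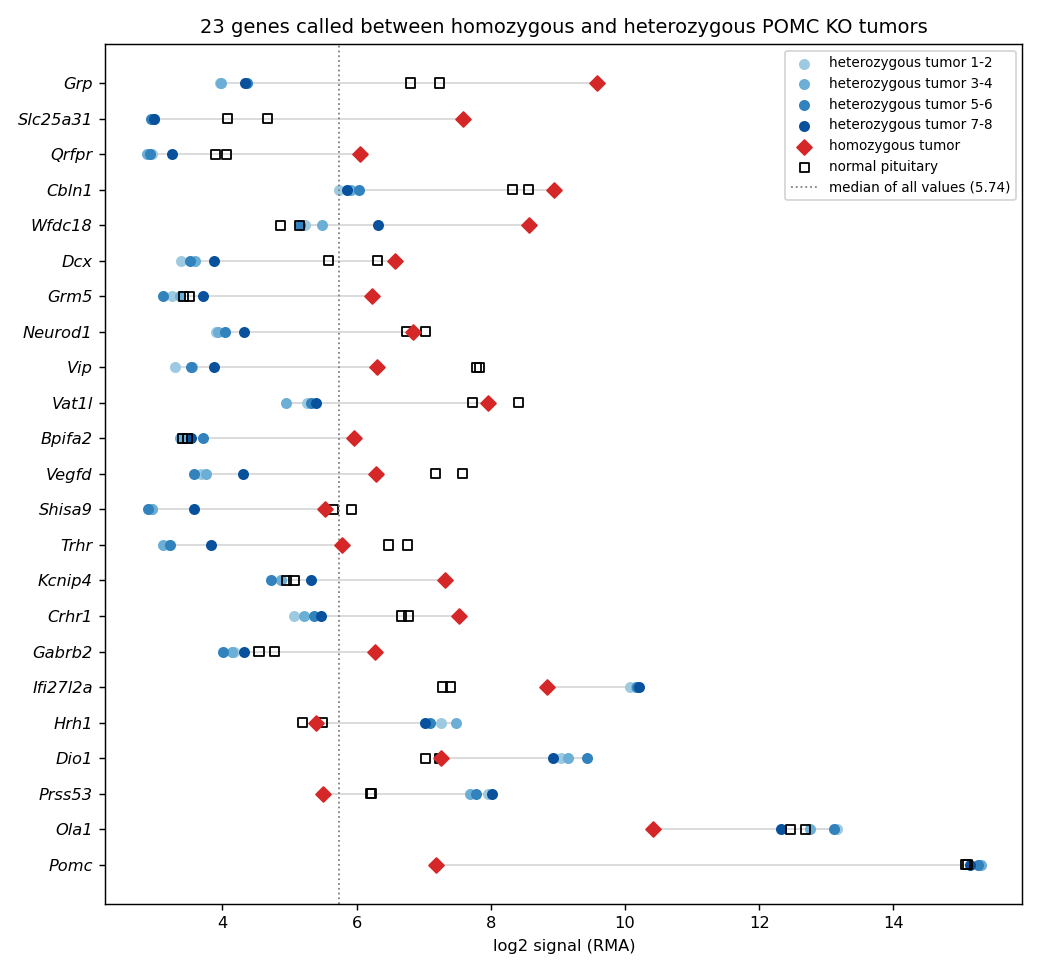
Log2 signal (horizontal axis) of 23 called genes in each sample, with blue circles for the 4 heterozygous tumors, red diamonds for the homozygous tumor, open squares for the 2 normal pituitaries and a dotted line at the median of all values (5.74). In all 23 the homozygous tumor lies outside the range of the heterozygous tumors, as for Grp (9.58 against 3.96 to 4.36). Such a position was part of the rule that picked the called genes with the largest change.

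Not every call held across the probe sets of a gene. A called probe set was found for 42 genes, of which 24 had 1 tested probe set, 7 had all of several called and 11 had only some called. Ola1 had a difference of -2.43 at 1 probe set, where all 4 heterozygous tumors (12.33 to 13.17) and both normal samples (12.47 and 12.69) were above the homozygous tumor at 10.41, while its other 2 tested probe sets had differences of -0.06 and 0.01. Sf1, a splicing factor, was at 12.25 against 8.03 to 8.73 at 1 of 5 tested probe sets (difference 3.70, adjusted p = 0.00317), and its other probe sets had differences from -0.25 to 0.15. Mtx1, a mitochondrial import protein, was at 9.92 against 7.70 to 7.85 at one probe set (difference 2.11, adjusted p = 0.0021) and had a difference of 0.22 at the other. Htr1b, a serotonin receptor, had a difference of 3.25 at one probe set, which passed the filter through the homozygous arrays alone. Its brighter probe set was at 6.86 in the homozygous tumor and 6.72 to 7.02 in heterozygous tumors. Hgh1 and Dcaf11 were split in the same way, at 1.79 and -0.09, and at -1.31 and 0.01. For these 6 genes the call belongs to a single probe set, and what sets it apart from the others was not tested.

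**Figure D3:**
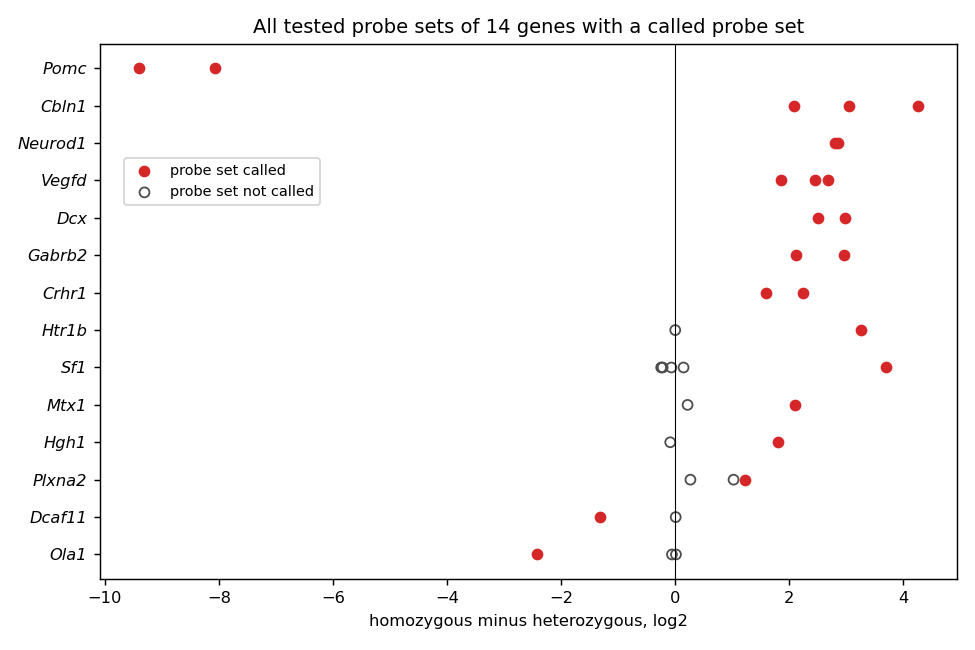
Difference between the homozygous tumor and the heterozygous mean (log2, horizontal axis) for all tested probe sets of 14 genes with a called probe set. Filled red circles are called and open circles are not. Among those tested, Pomc, Cbln1, Neurod1, Vegfd, Dcx, Gabrb2 and Crhr1 have called probe sets only, while Sf1 has 1 at 3.70 and 4 between -0.25 and 0.15. Probe sets of Dcx and Gabrb2 that did not pass the filter are not drawn.

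Among the 11 melanotroph and corticotroph identity genes tested, Crhr1 and Neurod1 rose and none fell, where 0.244% of all genes were called higher and 0.0487% lower. The median difference was 0.41 beside -0.03 over all genes. The factors that define these cells were not called. Pax7 was at 11.46, 11.28, 11.18 and 10.84 in heterozygous tumors, 10.38 in the homozygous tumor and 9.92 and 9.50 in normal pituitary (difference -0.81, standard error 0.26, adjusted p = 0.376). Tbx19, which activates Pomc, was at 10.12, 9.97, 9.50 and 10.48 in heterozygous tumors and 9.59 in the homozygous tumor, within their range (difference -0.43, adjusted p = 0.794). Neurod4 (2.08) and Crhbp, the binding protein of corticotropin-releasing hormone (3.70), had large differences that were not called (adjusted p = 0.433 and 0.61), since heterozygous tumors themselves ranged from 6.10 to 8.44 and from 3.42 to 8.59.

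Of 12 genes of gonadotrophs and thyrotrophs 1, Trhr, was called, where 0.292% of all genes were. Heterozygous tumors were spread widely in Tshb, Cga, Fshb and Lhb and narrowly in Nr5a1, at 4.99 to 5.30, and Gata2, at 6.23 to 6.82. All 12 had positive differences, with a median of 1.47, and 9 stood more than 2-fold above the heterozygous mean and above each heterozygous tumor, a position held by 2.05% of all genes. Tshb, the beta subunit of thyrotropin, was at 6.78, 8.30, 8.91 and 10.57 in heterozygous tumors, 11.10 in the homozygous tumor and 12.61 and 12.47 in normal pituitary (difference 2.46, standard error 1.13, adjusted p = 0.577). Cga, the common alpha subunit, was at 10.98, 12.20, 13.11 and 13.87, and 14.30 in the homozygous tumor (difference 1.76, adjusted p = 0.637). In both genes the order of the heterozygous tumors was the same and tumor 7-8 lay closest to the homozygous one. The mean log2 signal of the 12 genes was 5.89 to 7.19 in heterozygous tumors, 8.01 in the homozygous tumor and 9.69 and 9.71 in normal pituitary. These are whole pieces of tissue, in which fewer cells of a type and less RNA per cell cannot be told apart, and the part of residual normal gland in these values was not tested. Gh and Prl, of somatotrophs and lactotrophs, were bright in every sample (13.33 to 14.86 and 13.91 to 15.04) and were not called (differences 0.56 and 0.57). Of the 4 genes of these cells tested, 2 had positive and 2 had negative differences, down to -0.46.

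**Figure D4:**
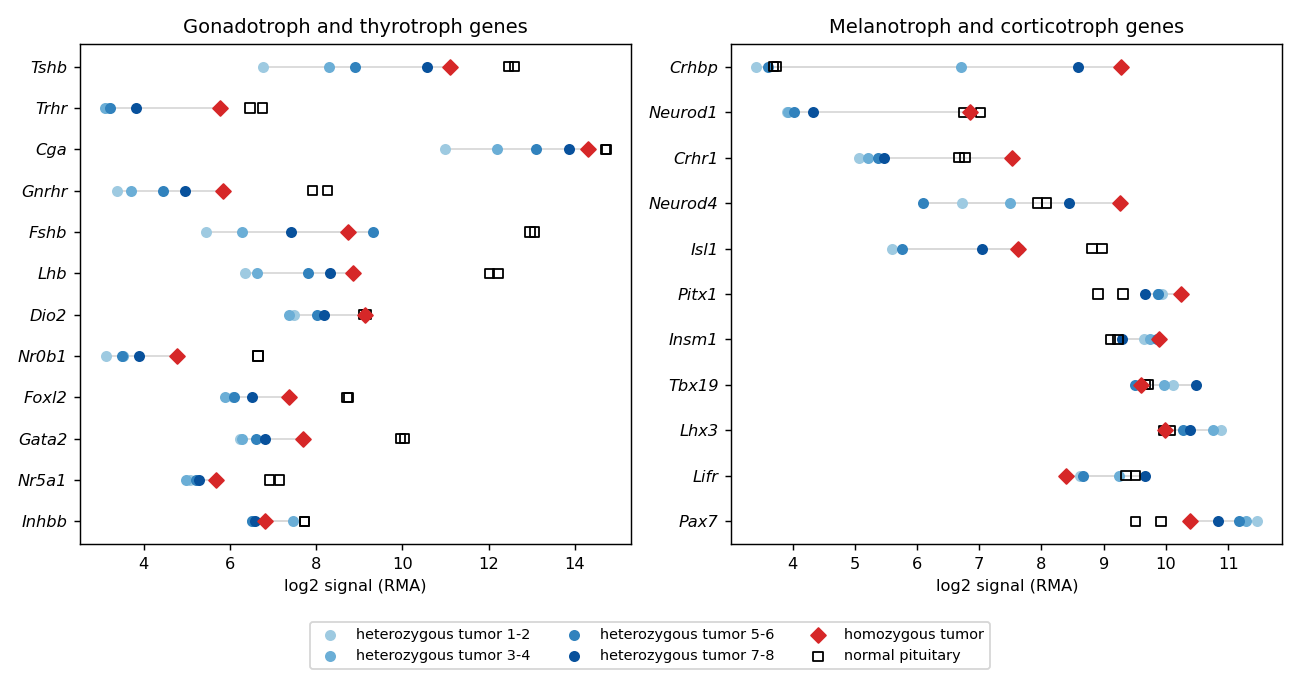
Log2 signal (horizontal axes) of 12 gonadotroph and thyrotroph genes (left) and 11 melanotroph and corticotroph genes (right) in each sample, with blue circles for the 4 heterozygous tumors, red diamonds for the homozygous tumor and open squares for normal pituitary. Tshb runs from 6.78 to 10.57 among heterozygous tumors, whereas Neurod1 and Crhr1 have narrow heterozygous ranges well under the homozygous values of 6.85 and 7.53.

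Of 6 dopamine and somatostatin receptor genes tested none was called, with a median difference of -0.30. Drd2 was at 11.73, 10.97, 11.37 and 10.52 in heterozygous tumors, 10.42 in the homozygous tumor and 10.49 and 10.34 in normal pituitary (difference -0.73, standard error 0.40, adjusted p = 0.67). Sstr2 was at 5.61, 5.45, 6.03 and 4.95, and 6.08 in the homozygous tumor (difference 0.57, standard error 0.34, adjusted p = 0.72). Sstr3 and Sstr5, both at 5.2 or less in all tumors and so under the median of all values, had differences of 0.20 (adjusted p = 0.864) and -0.24 (adjusted p = 0.744). Sstr1 had a difference of -0.34 (adjusted p = 0.913). Sstr4 stood apart from the heterozygous tumors, at 6.19 against 7.30, 7.49, 8.11 and 7.76, without passing the test (difference -1.47, standard error 0.31, adjusted p = 0.193). Of melanocortin and opioid receptor genes, Mc3r, a melanocortin receptor, and Mrap2, its accessory protein, were tested and had differences of 0.03 and -0.43.

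Cell cycle genes leaned lower in the homozygous tumor in small steps, none of which passed the test. All 28 DNA replication genes had negative differences, with a median of -0.64, and all 30 mitosis genes did, with a median of -0.43, where 55.7% of all genes had a negative difference. Mcm6, a subunit of the replicative helicase, was at 10.98, 10.95, 10.07 and 11.03 in heterozygous tumors, 9.76 in the homozygous tumor and 6.73 and 7.24 in normal pituitary (difference -1.0, standard error 0.38, adjusted p = 0.479). Mki67, the proliferation marker, was at 10.19, 10.16, 9.13 and 9.99 in heterozygous tumors and 9.20 in the homozygous tumor (difference -0.66, standard error 0.39, adjusted p = 0.704). For Mki67 the homozygous value lay within the heterozygous range, above tumor 5-6, and normal pituitary was at 7.09 and 7.35. Across the mitosis list the homozygous tumor was under tumor 5-6 in 16 of 30 genes and under each of the other heterozygous tumors in 30 of 30, and its mean signal of 7.43 lay beside the 7.44 of tumor 5-6. Across the replication list 25 of 28 genes were below all 4 heterozygous tumors, as were 26.9% of all genes. In normal pituitary the mean signals were lower still, at 5.82 and 6.04 for mitosis and 7.00 and 7.26 for replication. The part of residual normal gland in these differences was not tested. Among 17 G1 cyclins, kinases and inhibitors none was called, and Ccnd2, a D-type cyclin, had the largest difference, at 11.12 against 8.11, 9.03, 8.88 and 10.12 (2.09, adjusted p = 0.329), with 12.62 and 12.52 in normal pituitary.

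Genes of glycolysis and the response to low oxygen were lower by sign as well. Of 17 tested, 16 had negative differences, with a median of -0.51, and 14 were below all 4 heterozygous tumors, against 55.7% and 26.9% of all genes. Pgk1, a glycolytic kinase, was at 13.14, 12.98, 12.94 and 12.87 in heterozygous tumors and 12.56 in the homozygous tumor (difference -0.43, standard error 0.17, adjusted p = 0.497). Car9, a carbonic anhydrase induced by low oxygen, had the largest difference, -1.62 (adjusted p = 0.493), with 8.11 in tumor 3-4 and 6.38 to 6.47 in the others against 5.23. None of the 17 was called. Their mean signal was 9.83 to 10.36 in heterozygous tumors, 9.57 in the homozygous tumor and 8.90 and 8.98 in normal pituitary. The part of residual normal gland in these values was not tested either.

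Markers of immune and stromal cells had differences in both directions. Of 20 macrophage markers, 17 had negative differences and 15 were below all 4 heterozygous tumors, beside 55.7% and 26.9% of all genes. The median was -0.64, and none was called. Lyz2, a lysozyme of myeloid cells, was at 11.83, 12.10, 11.71 and 11.04 in heterozygous tumors, 10.39 in the homozygous tumor and 7.12 and 7.48 in normal pituitary (difference -1.27, standard error 0.36, adjusted p = 0.318). The mean of the macrophage markers was 7.99 to 8.63 in heterozygous tumors, 7.69 in the homozygous tumor and 6.38 and 6.55 in normal pituitary. The 5 genes of MHC class II, by which immune cells present antigen, went the other way, each above all 4 heterozygous tumors, as were 18.4% of all genes, with differences from 0.32 to 0.86. H2-Aa was at 9.80, 9.89, 10.35 and 10.35 in heterozygous tumors and 10.96 in the homozygous tumor (difference 0.86, standard error 0.24, adjusted p = 0.315), and Cd74 had a difference of 0.54 (adjusted p = 0.499). Of 23 fibroblast, mural cell and matrix genes 16 had negative differences (69.6%, beside 55.7% of all genes). The values ran from -2.50 for Fn1, which encodes fibronectin, to 0.72 for Dcn, which encodes decorin. Fn1 was at 10.13, 10.45, 9.53 and 8.43 in heterozygous tumors and 7.14 in the homozygous tumor (adjusted p = 0.298). Of 14 endothelial genes 12 had positive differences (85.7%, beside 44.3% of all genes), with a median of 0.41. The largest was that of Tek, an angiopoietin receptor, at 6.94 against 5.16 to 5.66 (1.49, adjusted p = 0.0864). No gene of these lists was called, and the part of macrophages or stroma in the differences of other genes was not tested.

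**Figure D5:**
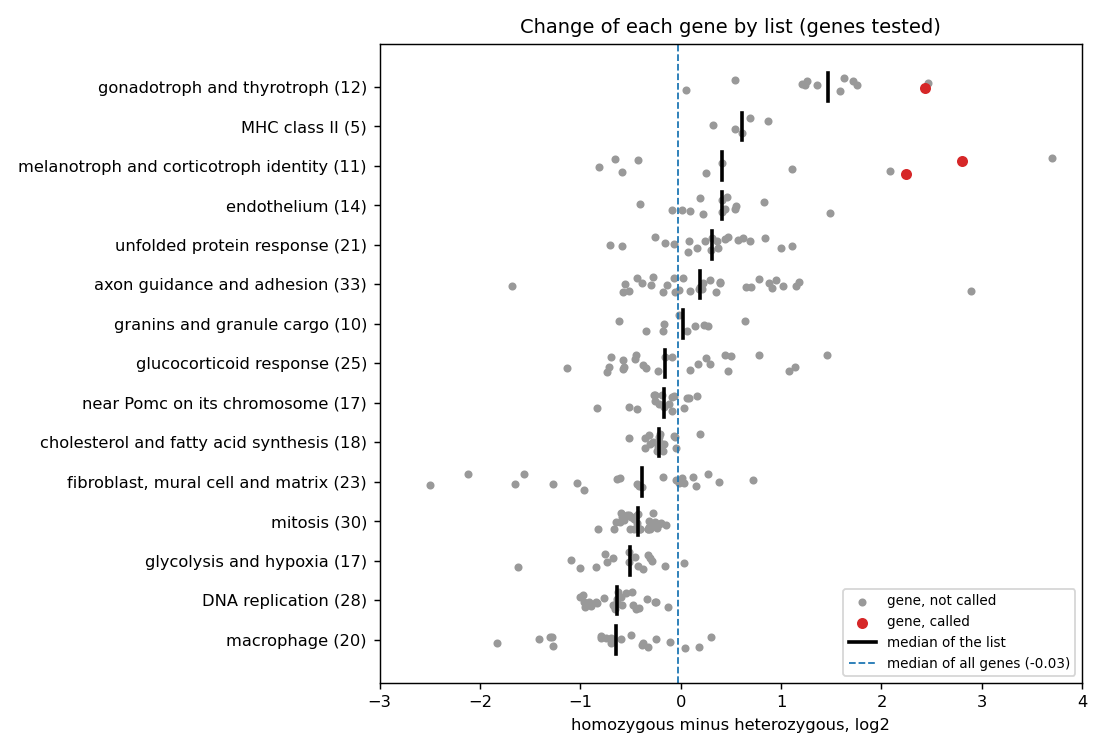
Difference between the homozygous tumor and the heterozygous mean (log2, horizontal axis) for each tested gene of 15 lists, with the number of genes tested in brackets. Grey points are genes not called, red points are genes called, black bars are list medians and the dashed line is the median of all genes (-0.03). The gonadotroph and thyrotroph list lies highest, with a median of 1.47, and the macrophage and DNA replication lists lowest, both at -0.64.

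Genes that respond to glucocorticoids, whose production needs adrenocorticotropin, had no called member. Of 25 tested 11 had positive and 14 negative differences (56% negative, close to the 55.7% of all genes), and the median was -0.15. Fkbp5, a cochaperone induced by glucocorticoids, was at 8.67, 8.47, 8.35 and 8.49 in heterozygous tumors, 7.75 in the homozygous tumor and 10.16 and 10.07 in normal pituitary (difference -0.74, adjusted p = 0.2). The metallothioneins Mt1 and Mt2 had differences of -0.57 and -0.69. Nr3c1, the glucocorticoid receptor, stood above the heterozygous tumors, at 9.58 against 7.83, 8.49, 7.59 and 8.57, with 10.56 and 10.44 in normal pituitary (difference 1.46, adjusted p = 0.261).

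Genes that neighbour Pomc on chromosome 12 were read to see whether expression near the targeted site differed. Of 17 tested none was called, and 13 had negative differences (76.5%, beside 55.7% of all genes). The values ran from -0.83 for Efr3b to 0.16 for Sf3b6. Efr3b was at 7.17, 7.51, 7.16 and 7.24 in heterozygous tumors and 6.44 in the homozygous tumor (standard error 0.18, adjusted p = 0.2). Dnmt3a and Ncoa1, also near Pomc, had differences of 0.08 and -0.08.

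In the remaining lists a median within 0.32 of 0 was found for each with 5 or more genes tested. Among 21 genes of the unfolded protein response 16 had positive differences, as did 44.3% of all genes, with a median of 0.32. Hspa5, the main chaperone of the endoplasmic reticulum, had a difference of 0.24 (adjusted p = 0.75). Of 18 cholesterol and fatty acid synthesis genes 17 had negative differences, as did 55.7% of all genes, with a median of -0.21, and none was called. Of 33 axon guidance and adhesion genes none was called by its brightest probe set, and Epha7, an ephrin receptor, had the largest difference (2.89, adjusted p = 0.158). In the imprinted list the largest differences were those of Dlk1 (2.96, adjusted p = 0.512), Asb4 (2.89, adjusted p = 0.408) and Nnat (2.57, adjusted p = 0.386), which ranged from 6.79 to 10.85, 5.64 to 8.73 and 8.64 to 11.01 among heterozygous tumors. Igfbp5, an insulin-like growth factor binding protein, was at 11.73 against 9.51 to 10.38 (difference 1.69, adjusted p = 0.18). The 11 housekeeping genes had a median difference of 0.

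With heterozygous tumors 1-2 and 5-6, those low in Xist, left out, 29 probe sets were called, 23 higher and 6 lower. Of the 23 genes drawn above, 12 were called in this setting, among them Pomc (-8.05), Grp (5.43), Cbln1 (3.05), Neurod1 (2.72), Crhr1 (2.19) and Prss53 (-2.35). The 12 include Slc25a31, Qrfpr, Grm5, Bpifa2 and Gabrb2, which entered the test through the homozygous arrays alone. Their calls in this setting, which used the same filter, cannot be read as support. The 11 genes not called kept their direction.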

How the data were processed

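Total RNA of 12 pituitary samples was hybridized to Affymetrix arrays, and the authors deposited log2 signals summarized with RMA in Expression Console. No version was given in the sources used here, and array signals carry no read depth, so the number of arrays limits the precision. The scanner files were not used here. Near-duplicate tumor arrays were averaged, which gave 4 heterozygous, 1 homozygous and 2 normal samples. Of 45101 probe sets, 24486 had 2 or more arrays at the table's median (5.74) and were tested with limma 3.58.1 (R 4.3.3, moderated statistics, 4 residual degrees of freedom, Benjamini-Hochberg adjustment over all of them). A probe set was called at an adjusted p below 0.05 and more than a 2-fold change, and each of 12316 genes was read from its brightest tested probe set. The procedure was run on simulated data in which all samples had the same spread. That run could not check the spread assumed for the homozygous sample. Gene names came from the platform annotation, and promoters from RefSeq on GRCm38.p6.

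The genotypes compared and the gene lists were chosen with earlier results of these data known. Genes were named by rule: Pomc, up to 15 called genes in each direction with the largest change, called or brightest members of each list, and all tested receptors and neighbours of Pomc. The genes with the largest change also had to have a homozygous value outside the heterozygous range. The other called genes, Sf1, Htr1b and Dcaf11, and Pax7, Tbx19, Neurod4, Crhbp, Pcsk1, Pcsk1n, Penk, Mcm6, Car9, Fn1, Dcn, Tek, Fkbp5, Nr3c1, Asb4, Nnat, Epha7, Nr5a1, Gata2, Fshb and Lhb were named after their values were seen. Alternatives covered averaging, filters, centring, blocks and left-out samples.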

Additional observations from a re-analysis of the deposited data

Results flagged for a closer look

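Among 121 named genes, 5 had 1 heterozygous tumor far from the other 3 (a gap to the nearest that took up most of the range of the 4, past Dixon's critical value). Chance alone gives about 1 such group in 20. Shisa9 was at 3.569 in tumor 7-8 and 2.893 to 2.956 in the others. Trhr was at 3.836 in tumor 7-8 and 3.11 to 3.224 in the others. In both genes tumor 7-8 lay toward the homozygous value, and all 4 values were under the median of the table. Slc25a31 was at 2.932 in tumor 5-6 and 2.978 to 2.986 in the others, a gap far under its difference of 4.61 between the genotypes. Fos, an immediate early gene, was at 9.563 in tumor 1-2 and 10.72 to 10.85 in the others. Hspa5, a chaperone of the endoplasmic reticulum, was at 14.15 in tumor 5-6 and 13.86 to 13.89 in the others.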

How the results depend on the processing

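The fall of Pomc kept its call in every setting run, at -8.18 to -7.97. The count of 61 called probe sets (52 higher, 9 lower) moved most with how the arrays were counted. It was 466 (315 and 151) with the 10 tumor arrays as separate samples, 498 (332 and 166) with 12 separate arrays, 575 (383 and 192) in a one-way test over genotypes and 222 (154 and 68) with the array pair as a random block. With the replicate number as a block (replicate block) it was 1283 (755 and 528), but the numbers did not pair the samples, since same-numbered arrays deviated from their group means with correlations of -0.11 to 0.102. Filters gave 97 (83 and 14) with none and 11 (6 and 5) with 4 of 7 samples required. Tumor samples alone gave 33 (30 and 3), and leaving out the low-Xist tumors, chosen after seeing the data, gave 29 (23 and 6). Leaving out 1 sample or array at a time gave 33 to 234 called, 30 to 178 higher and 3 to 56 lower. The count was 234 without heterozygous tumor 7-8, 34 without tumor 3-4 and 33 without either normal sample. The cause of these shifts was not tested. Pomc, Cbln1 and Prss53 kept their call in all 23 settings. Grp, Neurod1, Vip and Crhr1 kept it in the 22 that gave them a value, all but the filter on 4 of 7 samples. Slc25a31, Qrfpr, Grm5, Bpifa2 and Gabrb2 did so too, but they entered the test by the group where they are high. Apart from the fit with no filter, their calls across settings therefore cannot be read as support. Wfdc18 and Hrh1 lost their call in 9 settings and Trhr, Shisa9 and Ola1 in 8. No value reversed. The single homozygous sample is the main limit.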

Other observations

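Several genes that were not called varied widely among heterozygous tumors and were highest in the homozygous one, and they were noticed after their values were seen. Reln, which encodes the secreted matrix protein reelin, was at 4.48, 7.91, 4.61 and 8.83 in heterozygous tumors, 10.56 in the homozygous tumor and 4.87 and 4.91 in normal pituitary. Akr1c14, a steroid-converting reductase, was at 3.64, 6.11, 4.41 and 8.74, then 9.83, with 3.22 and 3.92 in normal pituitary. In both genes the tumors high in Xist, 3-4 and 7-8, lay above the tumors low in Xist, as they did in 22.2% of all genes tested. They also did in 15 of the 20 uncalled genes with the largest rises that stood above every heterozygous tumor. The part of sex in these values was not tested. S100a8, a calcium-binding protein of neutrophils, was at 8.64, 7.04, 6.49 and 5.84 in heterozygous tumors and 9.52 in the homozygous tumor. Avp, which encodes vasopressin, was at 5.71, 5.92, 6.63 and 7.12 in heterozygous tumors, 8.94 in the homozygous tumor and 9.16 and 9.49 in normal pituitary (difference 2.59, limma adjusted p = 0.153).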
